A study of Rattus norvegicus with 6 samples.

Results

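The 10 genes described here, Arc, Fos, Fosb, Junb, Egr1, Egr2, Egr3, Egr4, Npas4 and Nr4a1, are immediate early genes of neuronal activity. They were taken by symbol from a table of 17066 rat genes, by a rule that names genes and sets no threshold on their values, and all 10 were in the table and passed the filter on low values that left 10188 genes for testing. Their mRNA was measured by RNA-seq in primary hippocampal neurons of Sprague-Dawley rats, taken at embryonic day 18. Lentivirus was added on day 5 or 6 of culture, and RNA was collected on day 14. The 3 conditions were EGFP, the control that carried the fluorescent protein alone, CCNY-WT, which carried CCNY-WT-EGFP to overexpress cyclin Y, and CCNY-shRNA, which carried CCNY-shRNA-EGFP to knock it down. Each condition had 2 libraries. All cultures received lentivirus encoding EGFP, with no infection rate measured in these data, and neither uninfected neurons nor neurons with a non-targeting shRNA were analysed here. The FUGW vector holds a ubiquitin promoter, which is not restricted to neurons, and the promoter that drove the shRNA was not stated. The cultures were described as enriched in neurons rather than pure. The labels give no stimulus, so the levels are those of neurons under culture conditions.

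Immediate early genes are transcribed within minutes of synaptic input, without new protein synthesis. Calcium entering through NMDA receptors and voltage-gated channels activates kinases that act on transcription factors already bound at their promoters, among them CREB and SRF. Most of the products are transcription factors that switch on later genes, while Arc acts at the synapse itself, where it promotes the removal of AMPA receptors. In the hippocampus they are used as marks of recently active neurons and are tied to synaptic plasticity and memory. Cyclin Y has been described as a negative regulator of hippocampal long-term potentiation, so whether these genes differ with its level is a question that the libraries address.

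The level of the targeted gene followed the labels. Ccny was at 43.1 and 42.3 FPKM, a fragment count scaled to transcript length and library size, in EGFP neurons, 108 and 109 in CCNY-WT neurons and 5.98 and 6.19 in CCNY-shRNA neurons. The 10 neuron markers, such as Slc17a7 and Gad1, summed to between 3399.9 and 3519 FPKM per library, and 7 astrocyte markers to between 468 and 574. Microglial markers summed to at most 1.29 FPKM, with Cx3cr1 and Aif1 listed at 0 in every library. In cultures of mixed cells, fewer cells of a type and less RNA per cell cannot be told apart. The labels do not say whether the libraries of a condition came from separate cultures, so that the tests measure the spread between these libraries, which may be technical.

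All 10 members were expressed in the EGFP neurons, over a roughly graded range. Because FPKM is given per length, the levels of genes can be set side by side. Junb was highest at 34.3 ± 2.06 FPKM (mean ± SD, n = 2 here and below), followed by Arc at 28.7 ± 0.377, Egr3 at 25.9 ± 0.0135, Egr1 at 25.5 ± 1.04 and Fos at 22.7 ± 0.276. Nr4a1 at 14.5 ± 0.334, Npas4 at 12.4 ± 1.62 and Egr4 at 11.6 ± 2.28 formed a middle group. Egr2 at 6.72 ± 0.129 and Fosb at 3.42 ± 0.174 were lowest. The ranges over the EGFP libraries met for 2 pairs of neighbours in this order, Egr3 with Egr1 and Npas4 with Egr4, and the other neighbours did not overlap. Junb lay above 81.7% of the genes in the table and Fosb above 49.3%. Among the genes tested, these shares were 69.3% and 15.2%, so that even the highest member was not among the most abundant transcripts.

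**Figure D1:**
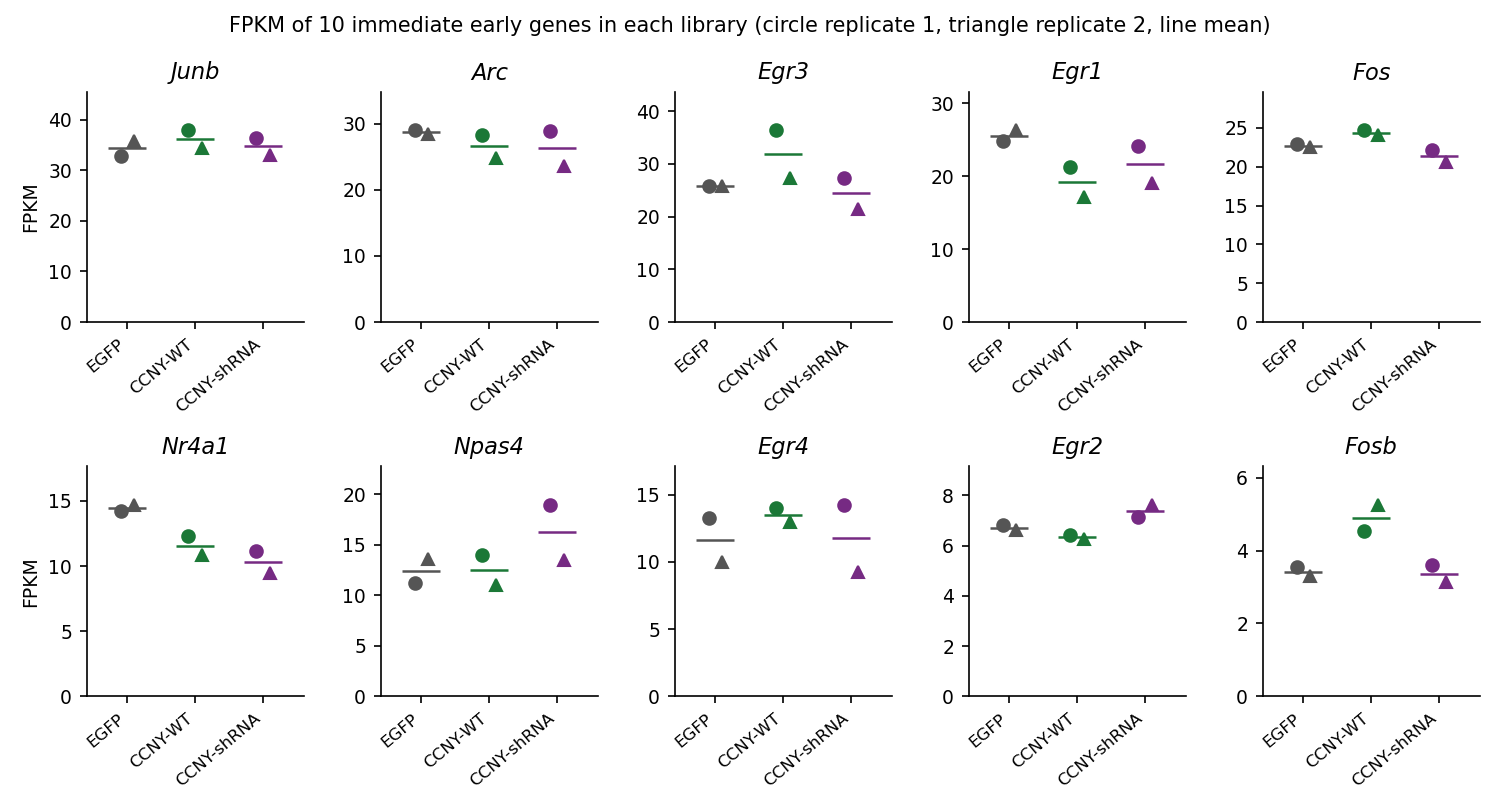
FPKM (linear axis from 0) of each of the 10 members in each of the 6 libraries, a panel per gene; points are libraries and horizontal lines condition means. Junb stays between 32.8 and 37.9 FPKM in all libraries, whereas Nr4a1 is lower in all 4 CCNY-WT and CCNY-shRNA libraries than in EGFP.

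Over the 6 libraries the median spread of the members was above that of genes of their level. The highest value was between 1.15 times (Junb) and 1.72 times (Npas4) the lowest, with a median of 1.54 over the members. For 5519 genes with an EGFP mean in the members' range, 3.42 to 34.3 FPKM, the median was 1.28, and 6 of 10 members lay above it. These genes were taken as 1 pool and not matched to each member, and Fosb lies at the lower end of the pool. The ratios of Npas4, of Egr3 (1.69) and of Fosb (1.68) also exceeded the upper decile of those genes, 1.61. Part of this variation was between replicates. For Arc, Junb, Egr3, Egr4 and Npas4, 5 of 10 members, the largest gap between replicates was wider than the largest difference of a condition from EGFP. The gaps are between single libraries and the differences between means of 2 libraries, which vary less. How many other genes would show this was not counted.

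No member passed the test in either comparison with EGFP or in the direct comparison of CCNY-shRNA with CCNY-WT (limma, Benjamini-Hochberg adjusted p under 0.05 over all 10188 genes). Among all genes tested, 0.00982% passed in CCNY-WT, 0.746% in CCNY-shRNA and 0.216% between CCNY-shRNA and CCNY-WT. The only gene that passed in CCNY-WT was Ccny itself. At these rates a count of 0 among 10 genes is close to the background. An unadjusted p under 0.05 was found for 3 members in CCNY-WT, where 6.83% of all genes lay, 1 in CCNY-shRNA, against 18.6%, and 3 between CCNY-shRNA and CCNY-WT, against 12.2%. With 2 libraries against 2, an exact two-sided permutation test of a single gene cannot give a p below 0.333. The intervals below state which differences the libraries leave possible, and a gene that missed the threshold is not thereby shown to be alike in the conditions.

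**Figure D2:**
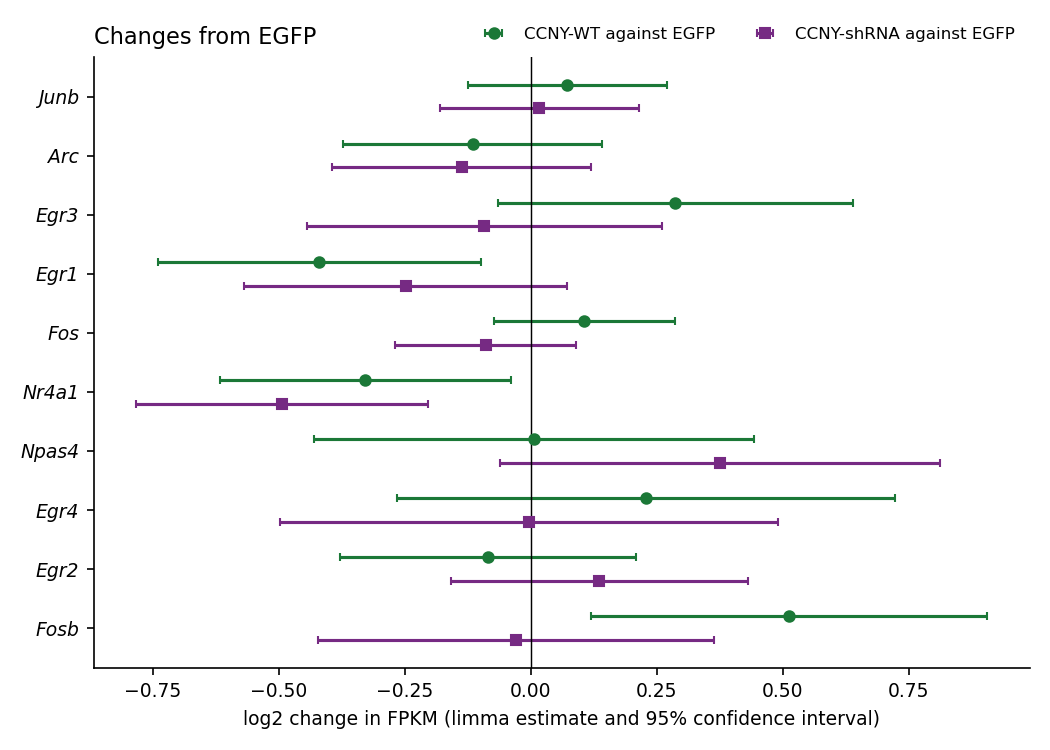
Log2 difference from EGFP of each member in CCNY-WT and CCNY-shRNA with its 95% limma interval; the vertical line marks 0. The intervals of Fosb, Egr1 and Nr4a1 in CCNY-WT and of Nr4a1 in CCNY-shRNA do not reach 0, and no member passes the adjusted threshold.

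The AP-1 factors come first. Fos and Fosb are basic leucine zipper proteins that bind DNA as partners of Jun proteins such as Junb. Fos was at 22.9 and 22.5 FPKM with EGFP alone, 24.7 and 24.1 with CCNY-WT and 22.1 and 20.5 with CCNY-shRNA. The CCNY-WT libraries thus lay above both EGFP libraries and the CCNY-shRNA libraries below them, without overlap. The share of all genes tested with such an order of the 3 conditions was not counted. The differences were small, with a log2 difference from EGFP of 0.11 (95% interval -0.074 to 0.29) in CCNY-WT and of -0.090 (-0.27 to 0.090) in CCNY-shRNA. The direct comparison of CCNY-shRNA with CCNY-WT gave -0.20 ± 0.0778 (SE, as for all log2 differences below, adjusted p = 0.379). Fosb, whose splice form ΔFosB is long-lived and accumulates after repeated activity, was at 3.55 and 3.30 FPKM in EGFP neurons, 4.53 and 5.26 in CCNY-WT neurons and 3.60 and 3.12 in CCNY-shRNA neurons. The CCNY-WT libraries stood apart from all the others. Fosb had the largest log2 difference of the members in CCNY-WT, 0.51 ± 0.170 (95% interval 0.12 to 0.91, a fold of 1.43, adjusted p = 0.725), while in CCNY-shRNA it was -0.029 (-0.42 to 0.36). Between CCNY-shRNA and CCNY-WT it was -0.54 ± 0.170 (adjusted p = 0.292). As 1 FPKM value per gene was given, the splice forms of Fosb were not separated. Junb was at 32.8 and 35.8 FPKM with EGFP alone, 37.9 and 34.3 with CCNY-WT and 36.4 and 33.0 with CCNY-shRNA. Its conditions overlapped, and its intervals were the narrowest after those of Fos, from -0.12 to 0.27 in CCNY-WT and from -0.18 to 0.21 in CCNY-shRNA on the log2 scale.

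The Egr genes encode zinc finger factors that bind the same GC-rich element, and the members of the family did not lie on the same side of EGFP. Egr1, which is required for the late phase of long-term potentiation, was at 24.8 and 26.3 FPKM in EGFP neurons, 21.2 and 17.2 in CCNY-WT neurons and 24.2 and 19.1 in CCNY-shRNA neurons. All 4 libraries with altered Ccny were below both EGFP libraries, the first CCNY-shRNA library only slightly. The log2 difference was -0.42 ± 0.138 (95% interval -0.74 to -0.099, adjusted p = 0.725) in CCNY-WT and -0.25 ± 0.138 (-0.57 to 0.072, adjusted p = 0.380) in CCNY-shRNA. Without the second library of each condition these differences were -0.27 and -0.078. Egr3, a close relative that acts in memory and in muscle spindle formation, was at 25.8 and 25.9 FPKM with EGFP alone, 36.4 and 27.3 with CCNY-WT and 27.4 and 21.5 with CCNY-shRNA. Both CCNY-WT libraries lay above EGFP, but by very different amounts, and the CCNY-shRNA libraries lay on either side of it. Its log2 difference was 0.29 ± 0.152 (adjusted p = 0.773) in CCNY-WT and -0.092 ± 0.152 (adjusted p = 0.797) in CCNY-shRNA. Egr2, known best for its part in hindbrain patterning and myelination, was at 6.81 and 6.63 FPKM in EGFP neurons, 6.41 and 6.26 in CCNY-WT neurons and 7.14 and 7.63 in CCNY-shRNA neurons. It was the only member with both CCNY-shRNA libraries above EGFP, and the 3 conditions did not overlap. How many other genes separate in this way was not counted. The log2 differences of Egr2 were only -0.085 (95% interval -0.38 to 0.21) in CCNY-WT and 0.14 (-0.16 to 0.43) in CCNY-shRNA. Egr4 was at 13.2 and 10.03 FPKM with EGFP alone, 14.0 and 13.01 with CCNY-WT and 14.3 and 9.25 with CCNY-shRNA. Its conditions overlapped, and its intervals, -0.27 to 0.72 in CCNY-WT and -0.50 to 0.49 in CCNY-shRNA, were the widest of the members.

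In CCNY-WT and CCNY-shRNA, the shares that Egr1 and Egr3 took of their family were closer between replicates than their levels were. Egr1 made up 35.1% and 38.2% of the summed FPKM of the 4 Egr genes in EGFP neurons, 27.2% and 26.9% in CCNY-WT neurons and 33.1% and 33.2% in CCNY-shRNA neurons. Egr3 made up 36.6% and 37.6% with EGFP alone, 46.6% and 42.9% with CCNY-WT and 37.5% and 37.4% with CCNY-shRNA. In EGFP the shares of these genes were thus near each other. Egr3 held more than Egr1 in both CCNY-shRNA libraries, and by a wider margin in both CCNY-WT libraries. The ratio of Egr1 to Egr3 was 0.960 and 1.02 in EGFP neurons, 0.583 and 0.629 in CCNY-WT neurons and 0.884 and 0.889 in CCNY-shRNA neurons. Both other conditions thus lay below EGFP without overlap, CCNY-shRNA by less. This ratio was singled out after its values were seen. Among 45 pairs of members it had the widest separation of CCNY-WT from EGFP, and it is a description without a test. Of these pairs 32 did not overlap, with no share counted for pairs of other genes, so this count is not interpreted. The sum of the 4 genes was 70.7 and 68.8 FPKM with EGFP alone, 78.0 and 63.8 with CCNY-WT and 73.0 and 57.5 with CCNY-shRNA, and overlapped.

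**Figure D3:**
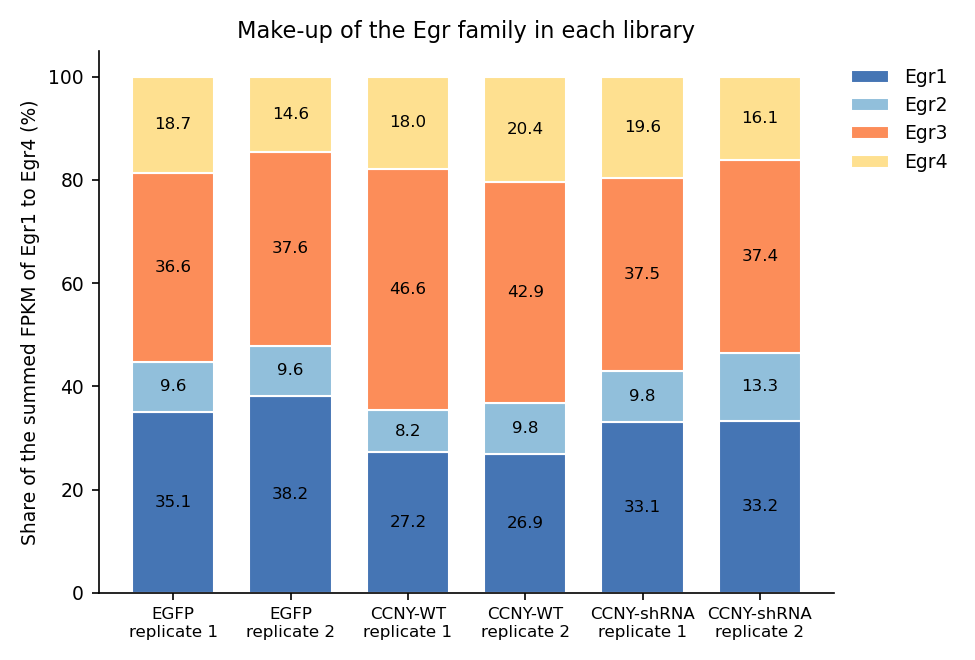
Percent of the summed FPKM of Egr1, Egr2, Egr3 and Egr4 contributed by each gene, a stacked bar from 0 to 100 per library. Egr1 holds 35.1% and 38.2% with EGFP alone against 27.2% and 26.9% with CCNY-WT, while Egr3 holds 46.6% and 42.9% there.

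Nr4a1, also called Nur77, is an orphan nuclear receptor that limits the density of dendritic spines. It was at 14.2 and 14.7 FPKM in EGFP neurons, 12.3 and 10.8 in CCNY-WT neurons and 11.2 and 9.46 in CCNY-shRNA neurons. All 4 libraries with altered Ccny were below both EGFP libraries. In CCNY-shRNA it had the largest log2 difference of the members in that condition, -0.49 ± 0.125 (95% interval -0.78 to -0.20, a fold of 0.710), and the smallest adjusted p of any member in the 3 comparisons, 0.105 (0.0752 to 0.377 over the alternatives). In CCNY-WT the log2 difference was -0.33 ± 0.125 (-0.62 to -0.040, adjusted p = 0.725), and that of CCNY-shRNA from CCNY-WT was -0.16 (-0.45 to 0.12, adjusted p = 0.659). Nr4a1 and Egr1 were the 2 members lower in all 4 libraries than in EGFP, where 10.7% of all genes tested lay, and no member was higher in all 4, against 10.6%. The conditions share the EGFP libraries, so their differences from EGFP are not independent. Nr4a1 in both conditions and Egr1 in CCNY-WT are also on gene lists that the study drew from these same libraries, which is no independent evidence of direction.

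Npas4, a bHLH-PAS factor induced selectively by calcium entry, sets the number of inhibitory synapses on excitatory neurons. It was at 11.3 and 13.6 FPKM with EGFP alone, 13.9 and 11.0 with CCNY-WT and 19.0 and 13.5 with CCNY-shRNA. The first CCNY-shRNA library was the highest of all, and the second lay just below the higher EGFP library. The log2 difference was 0.38 ± 0.189 (95% interval -0.062 to 0.81, adjusted p = 0.332) in CCNY-shRNA and 0.0058 ± 0.189 (-0.43 to 0.44, adjusted p = 0.998) in CCNY-WT. The difference in CCNY-shRNA depended on the first CCNY-shRNA library, without which it was 0.13 on the log2 scale. The ratio of Npas4 to Nr4a1 was 0.791 and 0.922 in EGFP neurons, 1.14 and 1.02 in CCNY-WT neurons and 1.70 and 1.43 in CCNY-shRNA neurons. It separated CCNY-shRNA from EGFP by the widest gap among the 45 pairs and was likewise chosen after its values were seen. Of these pairs 26 did not overlap there, again with no share for pairs of other genes, so this count is not interpreted.

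Arc, the synaptic effector, was at 29.0 and 28.5 FPKM with EGFP alone, 28.3 and 24.9 with CCNY-WT and 28.9 and 23.6 with CCNY-shRNA. Its EGFP libraries were close together, whereas in both other conditions the second library was lower than the first. The log2 difference was -0.12 (95% interval -0.37 to 0.14, adjusted p = 0.880) in CCNY-WT and -0.14 (-0.39 to 0.12, adjusted p = 0.553) in CCNY-shRNA. A difference in Arc mRNA as large as the one fitted for Nr4a1 in CCNY-shRNA lay outside both intervals.

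As a group, the members did not lie to one side of EGFP. In CCNY-WT 3 members lay above EGFP without overlap (Fos, Fosb and Egr3), against 20.3% of all genes tested, and 4 below (Arc, Egr1, Egr2 and Nr4a1), against 19.2%. In CCNY-shRNA 1 lay above (Egr2), against 23.9%, and 3 below (Fos, Egr1 and Nr4a1), against 24.5%. Compared with CCNY-WT, 1 member lay above in CCNY-shRNA (Egr2), against 20.3%, and 2 below (Fos and Fosb), against 21.9%. The median log2 difference of the 10 members was 0.039 for CCNY-WT and -0.059 for CCNY-shRNA, where the median of all genes tested was 0.0041 and 0, and between CCNY-shRNA and CCNY-WT it was -0.11, against 0.00098. These medians changed sign with a single library. Without the second CCNY-shRNA library the CCNY-shRNA median was 0.078 and that against CCNY-WT was 0.047, and the CCNY-WT median was -0.050 without the first CCNY-WT library and -0.027 without the first EGFP library. By the study's thresholds on the mean log2 difference, 0.3 for CCNY-WT and 0.33 for CCNY-shRNA, Fosb was higher in CCNY-WT (4.59% of all genes tested were) and Egr1 and Nr4a1 lower (3.76%), and Npas4 was higher in CCNY-shRNA (5.52%) and Nr4a1 lower (7.59%).

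The members differed between replicates in a shared direction. In CCNY-WT 9 of 10 members, all but Fosb, were higher in replicate 1 than in replicate 2, with a median log2 difference of 0.16. In CCNY-shRNA again 9 of 10, all but Egr2, were higher in replicate 1, with a median of 0.27. In EGFP the count was 5 of 10 and the median 0.012. Among all genes tested, the share higher in replicate 1 was 49.6% with EGFP alone, 49.2% with CCNY-WT and 50.4% with CCNY-shRNA. For genes of like level it was 50.4%, 50.9% and 54.2%. The largest gap was that of Egr4 in CCNY-shRNA, 14.3 against 9.25 FPKM or 0.63 on the log2 scale, followed there by Npas4 at 0.49, Egr3 at 0.35 and Egr1 at 0.34. For genes of like level the robust SD of this log2 ratio was 0.173 for EGFP, 0.172 for CCNY-WT and 0.196 for CCNY-shRNA. Of 20 other immediate early transcription factors, 13, 13 and 11 were higher in replicate 1 of EGFP, CCNY-WT and CCNY-shRNA, and the difference between these lists was not tested. Beside this pattern, 0 of 7 astrocyte markers were higher in replicate 1 of CCNY-shRNA, with a median log2 difference of -0.26 and sums of 468 and 540.04 FPKM. In CCNY-WT the astrocyte sums were 568 and 563 FPKM. Markers of the oligodendrocyte lineage went the way of the members. Of 5 such markers, 4 were higher in replicate 1 of CCNY-WT (median log2 difference 0.17) and 4 in that of CCNY-shRNA (0.26). For EGFP it was 2 of 5 (-0.044). Of 13 partners and regulators, 9, 9 and 7 were higher in replicate 1 of CCNY-WT, CCNY-shRNA and EGFP. For 10 neuron markers these counts were 3, 6 and 7. The shared direction was thus not confined to the members. The part of cell composition in the replicate differences was not tested.

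**Figure D4:**
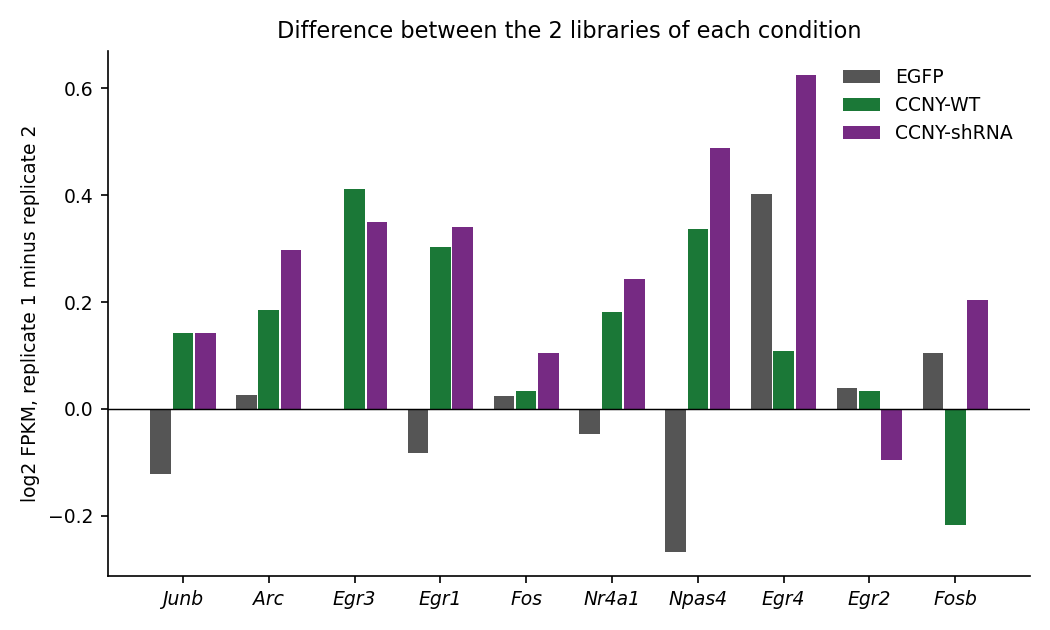
Log2 FPKM of replicate 1 minus that of replicate 2 for each member in EGFP, CCNY-WT and CCNY-shRNA; bars start at 0. Bars point upwards for 9 of 10 members in CCNY-WT and in CCNY-shRNA and for 5 of 10 in EGFP.

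In the mean profile of the members, the gaps between replicates in CCNY-WT and CCNY-shRNA were wider than the gaps between condition means. Single libraries vary more than means of libraries, so these kinds of gap are not alike. Averaged over the members after centring, log2 FPKM was 0.014 and 0.0063 in EGFP neurons, 0.11 and -0.039 in CCNY-WT neurons and 0.088 and -0.18 in CCNY-shRNA neurons. The genes outside the members whose log2 FPKM was most like this profile, by Pearson's r over the 6 libraries among 8046 genes with a mean of at least 5 FPKM, were Zmym6 (0.990), Zfp956 (0.987), Spock1 (0.985), Zbtb11 (0.977) and Kif3a (0.977), and 86 genes exceeded 0.9. With 6 points that share their libraries and FPKM scaling, this is a description. Spock1, a neuronal proteoglycan, was for example at 169 and 170.2 FPKM with EGFP alone, 179.6 and 165 with CCNY-WT and 173 and 153 with CCNY-shRNA, with the first CCNY-WT library highest and the second CCNY-shRNA library lowest, as in the members' profile.

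In 4 lists of related genes, 79 tested genes in all, none passed the adjusted threshold in any of the 3 comparisons. Of 20 other immediate early transcription factors, 1 lay higher in CCNY-WT at an unadjusted p under 0.05. Among all genes tested, 6.83% passed this cut in CCNY-WT in either direction. In CCNY-shRNA 2 of these factors were higher and 2 lower, against 9.2% and 9.36% of all genes tested. Nr4a2, a close relative of Nr4a1, was at 11.2 and 9.41 FPKM in EGFP neurons, 9.12 and 10.1 in CCNY-WT neurons and 7.56 and 8.36 in CCNY-shRNA neurons (log2 difference -0.37 ± 0.137, adjusted p = 0.207). Both CCNY-shRNA libraries were below EGFP, as they were for Nr4a1. Such a separation was found for 24.5% of all genes tested, and Nr4a2 was named for its small unadjusted p in these libraries. Per1, a clock gene that CREB induces, lay at a log2 difference of -0.30 (adjusted p = 0.167) in CCNY-shRNA. Ier5, an inducible regulator of heat shock factor, lay at 0.27 in CCNY-WT (adjusted p = 0.725) and 0.25 in CCNY-shRNA (adjusted p = 0.197). Klf10, a TGF-β-inducible repressor, lay at 0.19 in CCNY-shRNA (adjusted p = 0.241).

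Of 21 activity-regulated effector genes, 14 had lower and 7 higher fitted values in CCNY-shRNA. Their median log2 difference was -0.14, where that of all genes tested was 0. At an unadjusted p under 0.05 there were 3 lower and 0 higher, where 9.36% and 9.2% of all genes tested lay. In CCNY-WT 7 were lower and 14 higher, with a median of 0.046, where that of all genes tested was 0.0041. Both splits share the EGFP libraries, and neither was tested. Ptgs2, the inducible cyclooxygenase that makes prostaglandins, was at 22.4 and 20.6 FPKM with EGFP alone, 19.4 and 16.8 with CCNY-WT and 16.2 and 14.8 with CCNY-shRNA. All 4 libraries with altered Ccny lay below EGFP, as for 10.7% of all genes tested. Ptgs2 was named for its small unadjusted p in these libraries. Its log2 difference of -0.47 ± 0.106 in CCNY-shRNA had the smallest adjusted p of the 4 lists, 0.0853. Ptgs2 and Grin2a in CCNY-shRNA are on the lists that the study drew from these libraries. Plat, the tissue plasminogen activator, had a log2 difference from EGFP of 0.26 in CCNY-WT (adjusted p = 0.725) and -0.14 in CCNY-shRNA (adjusted p = 0.450), and CCNY-shRNA lay at -0.40 from CCNY-WT (adjusted p = 0.174). Pcsk1, a prohormone convertase, and Vgf, a neuropeptide precursor, had log2 differences of -0.22 and -0.14 in CCNY-shRNA (adjusted p = 0.238 and 0.239).

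Of 27 genes upstream of the members, 6 lay lower and 1 higher in CCNY-shRNA at an unadjusted p under 0.05, against 9.36% and 9.2% of all genes tested. They included Grin2a, a subunit of the NMDA receptor, at 21.5 and 21.0 FPKM in EGFP neurons, 20.2 and 18.6 in CCNY-WT neurons and 17.5 and 14.8 in CCNY-shRNA neurons (log2 difference -0.40 ± 0.105, adjusted p = 0.112). Camk4, the nuclear calcium-dependent kinase that phosphorylates CREB, was at 16.0 and 16.8 FPKM with EGFP alone, 16.7 and 14.6 with CCNY-WT and 13.1 and 11.5 with CCNY-shRNA (-0.42 ± 0.114, adjusted p = 0.120). Both genes were below EGFP in both CCNY-shRNA libraries, as were 24.5% of all genes tested. They were named for a small unadjusted p in these same libraries, so this separation is no further evidence. Mef2d, a transcription factor that activity engages, and Grin2b, another NMDA receptor subunit, had log2 differences of -0.27 and -0.27 (adjusted p = 0.152 and 0.173). Beside these values, the interneuron marker Gad2, which makes GABA, was lower in CCNY-shRNA by the test, at 129 and 129 FPKM against 170 and 173 in EGFP (log2 difference -0.41, adjusted p = 0.0226). This call held in 8 of 15 alternatives and was lost in 7, among them those without either EGFP library, with adjusted p from 0.0171 to 0.232. Gad1, the other GABA-synthesis gene of the same list, was at 183 and 187 FPKM against 189 and 188 (log2 difference -0.028, adjusted p = 0.813), and the 10 neuron markers summed to 3490.1 and 3462 FPKM in CCNY-shRNA. The part of interneurons in the values of the members was not tested. Of 13 partners and regulators, 1 lay lower in CCNY-shRNA at an unadjusted p under 0.05, against 9.36% of all genes tested. This was Cacng2, the AMPA receptor auxiliary subunit to which Arc binds, at a log2 difference of -0.28 (adjusted p = 0.219). Jun and Jund, which pair with the Fos proteins, had log2 differences of -0.19 and 0.13 there (adjusted p = 0.417 and 0.469), and Sh3gl3, an endophilin that works with Arc, 0.062 (adjusted p = 0.817), with -0.22 in CCNY-WT (adjusted p = 0.761).

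**Figure D5:**
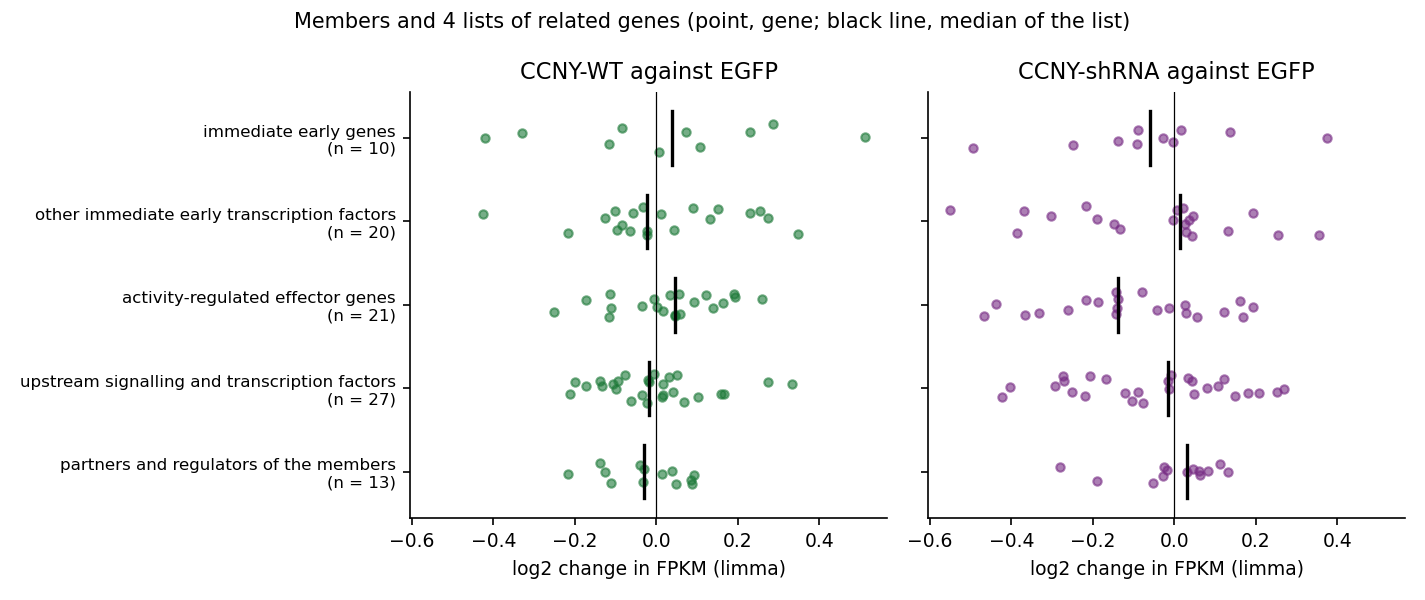
Log2 difference from EGFP of every tested gene among the 10 members and the 4 lists of related genes, in CCNY-WT and CCNY-shRNA; points are genes and black lines list medians. The medians lie between -0.14 (effector genes in CCNY-shRNA) and 0.046 (effector genes in CCNY-WT).

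Promoter sequences are shown for 3 members whose values in CCNY-shRNA lay below, above and on either side of EGFP. The RefSeq table (build GRCr8) held a promoter for 7 of the 10 members, Fosb, Npas4, Egr4, Nr4a1, Egr1, Junb and Egr2; Arc, Fos and Egr3 are named only. The letters TGACG, the core of the cAMP response element that CREB binds, were searched on both strands of each promoter, as was the CArG box that SRF binds, and no match of either overlapped the other. TGACG occurred in 5 of the 7 and in 18.2% of all 33469 promoters, and the CArG box in 2 of the 7 and in 1.50% of all. Nr4a1 had 4 TGACG matches, at 246, 226, 82 and 53 bases before the start of the gene, Egr4 had 2 (178 and 110), Egr1 had 2 (135 and 66), and Junb (155) and Egr2 (66) had 1 each. CArG boxes were found in Egr1 (105 and 83 bases before the start) and Egr2 (83). Nr4a1 is printed as the member with the lowest values in CCNY-shRNA relative to EGFP, Egr2 as a gene with both motifs and higher values there, and Egr4 as a gene with TGACG alone whose conditions overlapped. The 250 bases before each start are given 5′ to 3′ on the strand of the gene, with matches in capitals; all TGACG matches in these 3 read CGTCA, the letters of the other strand, and the 10-base capital run in Egr2 is the CArG box.
Nr4a1 (chr7:134259888-134260137, plus strand): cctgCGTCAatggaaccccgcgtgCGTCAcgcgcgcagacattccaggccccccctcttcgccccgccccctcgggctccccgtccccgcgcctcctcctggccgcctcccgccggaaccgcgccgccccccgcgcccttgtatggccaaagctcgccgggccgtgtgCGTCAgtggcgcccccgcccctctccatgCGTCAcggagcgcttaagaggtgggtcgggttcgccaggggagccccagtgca
Egr4 (chr4:119607818-119608067, minus strand): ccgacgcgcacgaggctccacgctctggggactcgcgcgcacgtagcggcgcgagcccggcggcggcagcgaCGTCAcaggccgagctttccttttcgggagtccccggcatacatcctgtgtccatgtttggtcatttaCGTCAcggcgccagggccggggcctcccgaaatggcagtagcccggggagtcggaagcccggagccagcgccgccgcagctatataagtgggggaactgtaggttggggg
Egr2 (chr20:21054442-21054691, minus strand): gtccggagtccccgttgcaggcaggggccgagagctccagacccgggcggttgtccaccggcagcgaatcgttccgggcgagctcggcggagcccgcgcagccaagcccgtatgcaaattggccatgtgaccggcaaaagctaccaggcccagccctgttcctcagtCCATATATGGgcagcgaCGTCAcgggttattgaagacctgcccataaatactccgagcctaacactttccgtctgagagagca
A match of letters is not a binding site, and no binding was measured. Fosb and Npas4 had neither motif in these windows, and most of all promoters lack each motif. Members with a motif lay on both sides of EGFP in CCNY-shRNA, Egr2 above and Egr1 and Nr4a1 below. A relation of the motifs to the values was not tested.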

How the data were processed

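RNA-seq was measured in 6 libraries of infected rat hippocampal neurons, 2 per condition (EGFP, CCNY-WT, CCNY-shRNA). Poly-A RNA was sequenced in paired-end reads, which the authors aligned to the rat genome rn4 with TopHat2 and summarised with Cufflinks. Per the labels' processing notes, the versions were TopHat2 2.0, Bowtie2 2.1.0, Cufflinks 2.2.1 and SAMtools 0.1.19. For each gene the deposited table holds an FPKM value in every library but no read counts, so no counting error can be given. FPKM sums were 645435 in the first CCNY-WT library and 543567 to 566287 in the others. Per library, 9955 to 10002 genes were at 1 FPKM or more and 4672 to 5049 were listed at 0.

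Values under 1 FPKM were set to 1 before taking log2. Fold changes are on this scale, where all values of the members exceed the floor. Genes with at least 1 FPKM in 2 or more libraries were tested with limma 3.58.1 in R 4.3.3 (lmFit, contrasts.fit, eBayes with trend), all 6 libraries sharing the spread, with Benjamini-Hochberg adjustment over 10188 genes and a threshold of 0.05. The fit was tested on simulated data with changes larger than any fitted for the members. That test therefore does not show whether changes of the members' size would be found. Tables were handled with Python 3.11.15 and pandas 2.3.3, and figures drawn with matplotlib 3.10.9. The members and gene lists were chosen with earlier results of these data known. Named genes are the 10 members, Ccny, in each list of related genes those past the threshold or else the 4 of smallest unadjusted p in CCNY-WT or CCNY-shRNA, and the 5 genes most like the members' mean profile; Gad2 and the marker genes named were taken from the marker lists, Gad2 after its values were seen. Alternatives covered the offset, filter, scaling, spread, a replicate block and leaving out each library. Promoters are from RefSeq (GRCr8) and share no coordinates with the rn4 files.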

Additional observations from a re-analysis of the deposited data

How the results depend on the processing

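None of the 10 members passed the adjusted threshold in any of the 3 comparisons under any of 15 alternatives, and the smallest adjusted p of a member was 0.0752, for Nr4a1 in CCNY-shRNA without its first library. Of 450 member values, 433 kept their direction and 17 changed sign. Outside the left-out libraries, Fosb in CCNY-shRNA became 0.016 with quantile normalization and Junb in CCNY-shRNA became -0.0056 with upper quartile scaling. Leaving out each library in turn, log2 differences that changed sign ranged, in CCNY-shRNA against EGFP, from -0.29 to 0.011 for Arc, from -0.27 to 0.082 for Egr3, from -0.32 to 0.31 for Egr4, from -0.13 to 0.073 for Fosb and from -0.054 to 0.088 for Junb. In CCNY-WT against EGFP that of Npas4 ranged from -0.16 to 0.17, and in CCNY-shRNA against CCNY-WT from -0.17 to 0.13 for Arc, from -0.55 to 0.080 for Egr4 and from -0.13 to 0.016 for Junb. The median over the members ranged from -0.20 to 0.078 in CCNY-shRNA against EGFP and from -0.21 to 0.047 against CCNY-WT. Among members that kept their sign, Egr1 ranged from -0.57 to -0.27 in CCNY-WT and from -0.42 to -0.078 in CCNY-shRNA.

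With a replicate block, 0 members passed, and the median log2 difference of the members was 0.039 in CCNY-WT, -0.059 in CCNY-shRNA and -0.11 between them. Deviations of same-numbered libraries correlated at 0.053 (EGFP with CCNY-WT), 0.038 (EGFP with CCNY-shRNA) and 0.054 (CCNY-WT with CCNY-shRNA) over all genes tested, and at 0.14, -0.029 and 0.14 over genes with a mean of at least 5 FPKM. As not every pair of conditions exceeded 0.1 and the labels tie no number to a shared culture, the numbers were not taken to pair the samples. The block moved the count over all genes in CCNY-shRNA from 17 higher and 59 lower to 8 and 31. That count was 1 and 1 with no filter on low values, 0 and 1 with no trend, 5 and 35 with upper quartile scaling, 30 and 78 with a mean FPKM of at least 1, 4 and 21 with only the 2 conditions compared, and from 0 and 1 (without either EGFP library) to 40 and 46 (without the first CCNY-shRNA library) when a library was left out. Between CCNY-shRNA and CCNY-WT, 2 higher and 20 lower became 2 and 30 with an offset of 1, 1 and 1 with no filter, 0 and 1 with no trend and without either CCNY-WT library, and 0 and 8 with only the 2 conditions compared. In CCNY-WT the count of 1, which was Ccny, became 3 with an offset of 1 or a mean FPKM of at least 1, and 5 with only the 2 conditions compared. Read counts were not given, so the error of a single FPKM value is unknown, and with 2 libraries a condition the standard error of a member's log2 difference was 0.0778 (Fos) to 0.213 (Egr4).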
